A study of Mus musculus with 35 samples.

Results

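The genes described here are Gpr17 and 7 other genes known from the stage between the dividing oligodendrocyte precursor and the myelinating oligodendrocyte: Bmp4, Enpp6, Neu4, Bcas1, Tcf7l2, Itpr2 and Fyn. They are 8 of 54119 genes in the deposited files. Gpr17 was selected because its level in hypothalamus was lower on the high-fat high-sugar diet, and the others were added as genes of the same stage. Diet values in hypothalamus are therefore given as a description, without a test, for all 8 genes, and the same holds for every hypothalamus value of Gpr17. The tests of these 8 genes below concern contrasts and measures other than that diet contrast, although those with hypothalamus reuse its libraries. In that contrast, genes that passed are counted only as a description, in marker lists and over all genes, these 8 included. Earlier results of these data were known when the members and lists were chosen. The p-values measure the spread between pools of mice and take the libraries as independent. The labels do not say whether libraries of different regions share mice.

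The 35 libraries come from male C57BL/6JRj mice that were put on standard chow (SC) or on a high-fat high-sugar diet (HFHS, 58%) at an age of 8 to 9 weeks and kept on it for 4 months. Each library is RNA of 1 pool of tissue from 2 mice, after magnetic sorting (MACS) on beads that bind ACSA2, which is the product of Atp1b2 on the astrocyte surface. On SC there were 6 hypothalamus, 5 hippocampus and 6 cortex libraries, and on HFHS 5, 7 and 6. Cortex cells were sorted on LS columns with larger reagent volumes, cells of the other regions on MS columns, so column type and region cannot be told apart in any contrast with cortex. Libraries held 47578560 to 65982495 assigned reads. Levels are given in TPM, a share of all transcripts that corrects for transcript length, and differences are given as log2 fold changes from read counts in edgeR.

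The labels call the cells astrocytes, and the libraries also held RNA of other cell types. Summed over 12 mature oligodendrocyte markers, among them Mbp of compact myelin, the level lay between 73207 and 98067 TPM in hypothalamus on SC, against 2356 to 3985 TPM for 12 astrocyte markers, among them Aqp4 and Atp1b2. In cortex on SC the ranges were 8056 to 53702 TPM and 7437 to 19292 TPM. The sum of 10 precursor markers, led in this field by Pdgfra, lay between 32.1 and 472.7 TPM over all libraries. In cortex on SC, 1 of the 10, Ptprz1, had a median of 97.4 TPM beside a median sum of 117.1 TPM. No marker of these 3 lists was at 0 in all libraries of a group. One hypothalamus library, HFHS replicate 2, stood apart with 12784 TPM of astrocyte markers against 2781 to 4540 TPM in the rest of its group. Mean transcript length, weighted by TPM, lay between 1034 and 1858 bases, and was shortest in cortex SC replicate 6 (1034 bases) and cortex HFHS replicate 6 (1191 bases). In hypothalamus it was shortest in SC replicate 6 (1469 bases).

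Oligodendrocyte precursors divide throughout adult life and leave the cycle as committed precursors before they form myelin. GPR17 is a membrane receptor that appears in that interval and is shut off as myelin genes come on. In adult brain the stage is brief, so its transcripts are sparse beside those of myelin, and in hypothalamus precursors are also found close to the median eminence, a region of lasting oligodendrocyte turnover.

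In the GRCm38 build, with the GENCODE annotation, Neu4, a sialidase that removes sialic acid from glycoproteins and gangliosides, lies on chromosome 1 at 94020451 to 94028334 (plus strand). Bmp4, a secreted ligand of the bone morphogenetic protein family, lies on chromosome 14 at 46383520 to 46390669 (minus). Enpp6, a choline-specific phosphodiesterase used as a mark of newly forming oligodendrocytes, lies on chromosome 8 at 46986887 to 47096762 (plus). Bcas1, a cytoplasmic protein of early myelinating cells, lies on chromosome 2 at 170346991 to 170427845 (minus). Tcf7l2, a transcription factor at the end of the Wnt pathway, lies on chromosome 19 at 55741820 to 55933654 (plus). Itpr2, an endoplasmic reticulum calcium channel opened by inositol trisphosphate, lies on chromosome 6 at 146108299 to 146502223 (minus). Fyn, a Src family kinase that relays axonal contact to the local synthesis of myelin basic protein, lies on chromosome 10 at 39368855 to 39565381 (plus).

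The 250 bases before the transcription start, from RefSeq on GRCm38.p6, are shown for Neu4, Bmp4 and Enpp6, genes in its promoter table whose tested levels differed most by region. Capitals mark each E-box, CANNTG, the core letters read by helix-loop-helix factors such as Olig2. The windows are chr1:94020243-94020492 on the plus strand, chr14:46390670-46390919 on the minus strand and chr8:46986637-46986886 on the plus strand.
Neu4: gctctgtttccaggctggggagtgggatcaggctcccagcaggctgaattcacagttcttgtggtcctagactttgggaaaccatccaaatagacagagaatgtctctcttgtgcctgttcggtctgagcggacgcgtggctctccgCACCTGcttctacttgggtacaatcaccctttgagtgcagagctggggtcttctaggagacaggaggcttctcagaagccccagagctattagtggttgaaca
Bmp4: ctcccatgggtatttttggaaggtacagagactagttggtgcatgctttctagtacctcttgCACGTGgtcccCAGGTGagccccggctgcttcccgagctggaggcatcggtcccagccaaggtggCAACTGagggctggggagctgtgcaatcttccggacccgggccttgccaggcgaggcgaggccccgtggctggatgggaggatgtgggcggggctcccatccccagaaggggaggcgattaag
Enpp6: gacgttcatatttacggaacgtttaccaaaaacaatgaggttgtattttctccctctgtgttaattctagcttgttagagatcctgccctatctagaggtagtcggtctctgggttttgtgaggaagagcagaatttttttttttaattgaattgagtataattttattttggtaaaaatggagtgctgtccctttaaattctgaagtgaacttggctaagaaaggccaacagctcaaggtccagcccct
The Bmp4 window holds 3 E-boxes, the Neu4 window 1 and the Enpp6 window 0, and 66.2% of 32851 mouse promoter windows of this length hold at least 1. The Sox core ACAAT, read on both strands, occurs 1 time in the Neu4 window, 1 time in the Enpp6 window and 0 times in the Bmp4 window, and in 27.7% of all windows. The core CTTTGA, read on both strands and known from TCF/LEF factors, occurs 1 time in the Neu4 window, 0 times in the other two and in 13.8% of all windows. Both cores are common enough that these matches only describe the letters of the windows.

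Gpr17, the receptor by which the set was chosen, lies on chromosome 18 at 31942997 to 31949636 (minus strand, GRCm38), with 1 annotated transcript. Its level was highest in hypothalamus on SC. The SC libraries held 13.2 to 84.0 TPM with a median of 47.5 TPM, and the HFHS libraries held 4.60, 3.85, 9.22, 12.5 and 7.71 TPM. Every HFHS library was below every SC library, although the nearest pair, 12.5 TPM in HFHS replicate 4 and 13.2 TPM in SC replicate 6, almost met. SC replicate 6 is the hypothalamus library of shortest transcripts. The fitted log2 fold change was -2.53 ± 0.41 (SE), and lay between -2.72 and -2.25 as each library was left out. This is the contrast that chose the gene, and so it stands without a test. For scale, 0.483% of the 19272 genes tested in hypothalamus had all HFHS libraries below all SC libraries, and Gpr17 is the only one of the 8 genes among them.

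**Figure D1:**
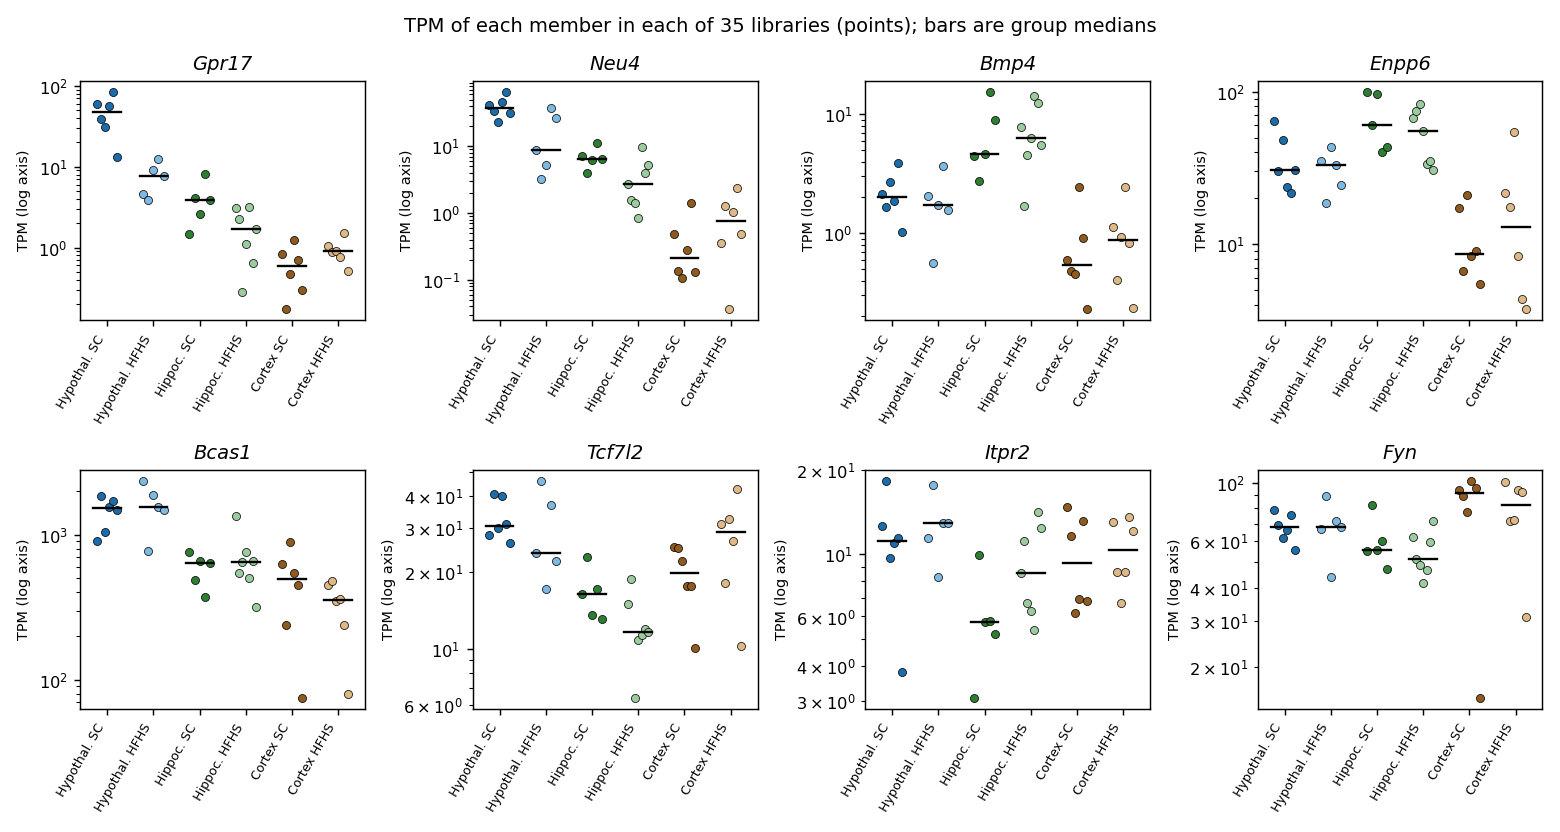
TPM of each of the 8 genes (log axis, its own range in each panel) in each of 35 libraries, grouped by region and diet; points are libraries and bars are group medians. Gpr17 and Neu4 step down from hypothalamus to hippocampus to cortex, Bmp4 and Enpp6 peak in hippocampus, Bcas1 is highest in hypothalamus, and Tcf7l2, Itpr2 and Fyn lie in narrower ranges.

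Neu4 followed the same order of regions. Its hypothalamus level was 23.4 to 65.6 TPM on SC, with a median of 38.2 TPM, and 8.92, 3.22, 5.28, 37.8 and 26.3 TPM on HFHS. The diets overlapped, since 2 HFHS libraries lay inside the SC range and 3 lay under it. The fitted difference was -1.31 ± 0.49, between -1.77 without HFHS replicate 4 and -1.06 without HFHS replicate 2.

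None of the remaining 6 genes had a hypothalamus diet difference as large as 2 SE. Bcas1 differed by 0.31 ± 0.30, Bmp4 by 0.15 ± 0.37, Fyn by 0.15 ± 0.17, Itpr2 by 0.14 ± 0.22, Enpp6 by -0.13 ± 0.28 and Tcf7l2 by -0.01 ± 0.24 on the log2 scale. Enpp6, the later mark, had 21.6 to 64.1 TPM on SC (median 30.4) and 35.2, 18.5, 43.7, 33.0 and 24.3 TPM on HFHS. The ranges overlapped. SC replicates 1 and 3 (64.1 and 48.5 TPM) lay above every HFHS library, and HFHS replicate 2 (18.5 TPM) lay below every SC library. The ratio of Enpp6 to Gpr17 TPM was accordingly 0.257 to 2.33 on SC and 2.63 to 7.66 on HFHS, without overlap, through its denominator. Tcf7l2 rested on 1 library: without HFHS replicate 2, the library rich in astrocyte markers, its difference was -0.28.

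**Figure D2:**
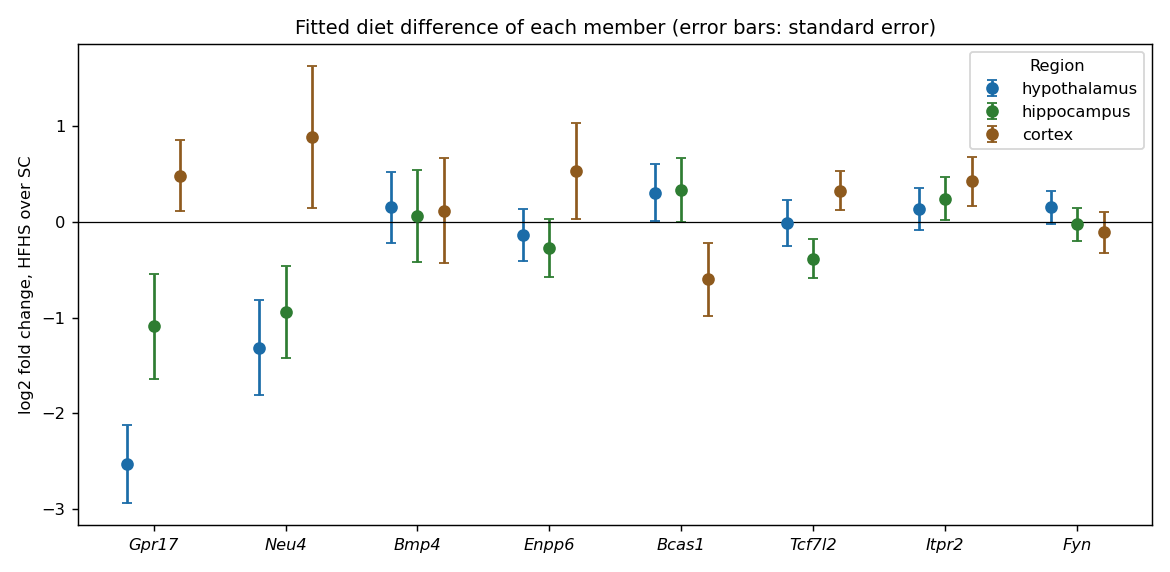
Fitted log2 fold change of HFHS over SC for each gene in each region; points are edgeR estimates and bars are standard errors. Gpr17 (-2.53) and Neu4 (-1.31) lie below 0 in hypothalamus, and no hippocampus or cortex value passed the adjusted threshold.

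Precursor markers had lower values in the same hypothalamus libraries. Pdgfra, the growth factor receptor of dividing precursors, held 23.1 to 100.8 TPM (n = 6) on SC and 5.70 to 27.0 TPM (n = 5) on HFHS, and the sum of all 10 precursor markers was 222.8 to 472.7 TPM on SC and 106.6 to 280.7 TPM on HFHS. Within these sums, Ptprz1 had medians of 71.6 TPM on SC and 61.0 TPM on HFHS, beside median sums of 349.3 and 186.3 TPM. Of the 10 markers, 9 had a fitted value below 0, with a median of -1.20 against -0.01 over all genes tested, and 0 passed the adjusted threshold. Per unit of Pdgfra, Gpr17 stood at 0.571 to 0.931 on SC (median 0.844) and at 0.464 to 0.861 on HFHS (median 0.579). The ratio thus overlapped between diets where the level did not. HFHS replicates 4 and 5 (0.464 and 0.516) lay below every SC library, of which replicate 6 was lowest. Neu4 per unit of Pdgfra was 0.615 to 1.39 on SC (median 0.654) and 0.484 to 1.76 on HFHS (median 1.40). In bulk RNA, fewer cells of a type and less RNA per cell cannot be told apart. Whether the precursor markers account for the lower Gpr17 was not tested.

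**Figure D3:**
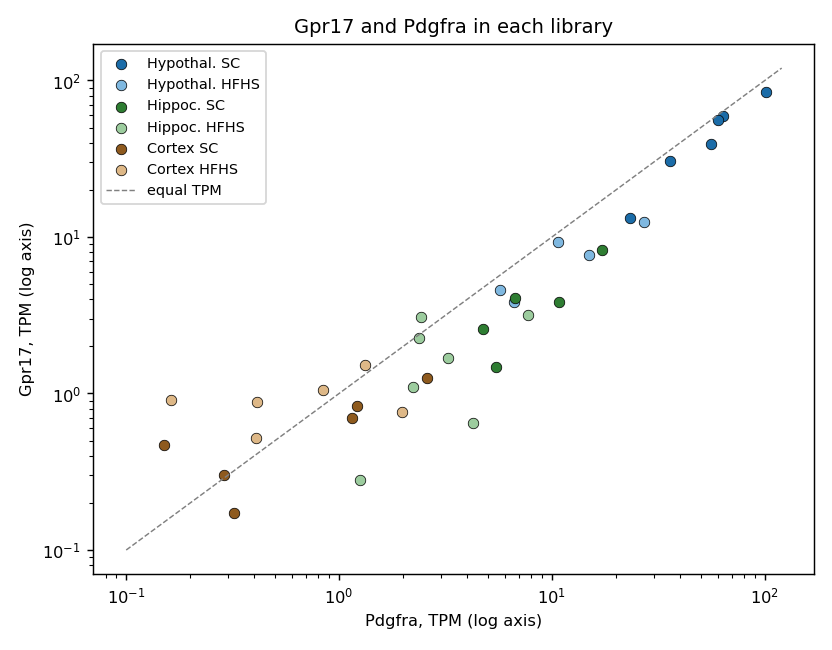
Gpr17 against Pdgfra, both in TPM on log axes, in each of 35 libraries; points are libraries coloured by region and diet, and the dashed line marks equal TPM. In hypothalamus every point lies below the line on both diets, with 0.464 to 0.931 Gpr17 per unit of Pdgfra. Cortex libraries scatter at levels near 1 TPM.

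Other genes of the transition were examined beside the 8. Of 19 tested genes known from committed and newly formed oligodendrocytes, 17 had a fitted hypothalamus diet value below 0, with a median of -0.28, and 0 passed. The most abundant of them, Sirt2, a tubulin deacetylase, had a value of -0.08 ± 0.16. Of 15 transcription factors of the lineage, 10 were below 0, with a median of -0.28, and 0 passed. All 12 astrocyte markers had fitted values above 0 (median 0.84, 0 passed), and the 12 mature markers had a median of -0.08. The HFHS group holds replicate 2, the library rich in astrocyte markers. By TPM, the HFHS median was below the SC median for Atp1b2 (204.8 against 254.5), Fgfr3 (70.4 against 77.9) and Gja1 (380.7 against 382.4). It was above the SC median for all others of the 12. In edgeR, 0 of 19272 genes passed in this contrast, and 1639 had an unadjusted p under 0.05.

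In hippocampus, the level of Gpr17 was low on both diets. The SC libraries held 1.48, 4.09, 2.58, 8.23 and 3.85 TPM, and the HFHS libraries 0.280 to 3.15 TPM with a median of 1.69 TPM. The diets overlapped. The difference of -1.09 ± 0.55 did not pass edgeR's quasi-likelihood test (adjusted p = 0.876), and was smallest, at -0.69, without SC replicate 4. Neu4 held 7.08, 3.97, 6.21, 11.2 and 6.51 TPM on SC, and 0.857 to 9.67 TPM with a median of 2.78 TPM on HFHS. Its difference was -0.94 ± 0.48 (edgeR adjusted p = 0.876). Tcf7l2 differed by -0.38 ± 0.21 (edgeR adjusted p = 0.876), with 16.4, 23.1, 13.6, 17.2 and 13.1 TPM on SC and 6.36 to 18.7 TPM on HFHS.

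Of the 8 genes, 0 changed with diet in hippocampus, beside 0% of the 19036 genes tested (984 at an unadjusted p under 0.05), and none of the 8 had an unadjusted p under 0.05. DESeq2 called 16 genes there and 0 of the 8. Genes with all HFHS libraries below all SC libraries made up 0.41% of those tested, and none of the 8 was among them. All 10 precursor markers had fitted values below 0, with a median of -0.75 against 0.00 over all genes, and 0 passed. Pdgfra had a mean of 8.98 ± 5.19 TPM (n = 5) on SC and 3.37 ± 2.15 TPM (n = 7) on HFHS.

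In cortex, Gpr17 was near the lower end of what was measured, at 0.172 to 1.25 TPM on SC (median 0.586) and 0.520 to 1.51 TPM on HFHS (median 0.897). These levels rest on 41 to 310 estimated reads per library. The difference of 0.48 ± 0.37 was not past the threshold (edgeR adjusted p = 0.784). Neu4, at 0.106 to 1.41 TPM on SC and 0.0359 to 2.35 TPM on HFHS, differed by 0.89 ± 0.74 (edgeR adjusted p = 0.814), and Bcas1 by -0.60 ± 0.38 (edgeR adjusted p = 0.719). Of the 8 genes, 0 changed with diet in cortex, beside 0% of 17844 genes tested (1652 at an unadjusted p under 0.05), and none of the 8 had an unadjusted p under 0.05. DESeq2 called 492 genes in cortex and 0 of the 8. In edgeR, 515 genes passed without the short libraries, 412 with the replicate number as a block, 32 with no filter on low counts and 16 with counts rebuilt from TPM. Upper quartile scaling gave 0, and 0 of the 8 passed under each of these settings. Genes with all HFHS libraries below all SC libraries made up 0.325% of those tested, and none of the 8 was among them.

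The diet difference was compared between hippocampus and cortex in the model of all 6 groups. Gpr17 differed by -1.54 ± 0.64 more in hippocampus (edgeR adjusted p = 0.516), Neu4 by -1.76 ± 0.86 (edgeR adjusted p = 0.532) and Tcf7l2 by -0.65 ± 0.30 (edgeR adjusted p = 0.528). These 3 had an unadjusted p under 0.05, and 0 of the 8 passed after adjustment, beside 0% of 21574 genes (2007 at an unadjusted p under 0.05). DESeq2 called 24 genes in this contrast and 0 of the 8. The diet effect of Gpr17 in hypothalamus, less that in cortex, was -2.99 ± 0.67, and less that in hippocampus -1.45 ± 0.66, both without a test because they hold the contrast that chose the gene.

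The regions differed far more than the diets. Between hippocampus and cortex on SC, 7 of the 8 genes changed, 4 higher and 3 lower in hippocampus, where 15.4% of 21574 genes were higher and 15.3% lower. On HFHS it was again 4 higher and 3 lower, beside 13.4% and 10.8%. Between hypothalamus and cortex, with Gpr17 left aside, 5 of 7 changed on SC, 3 higher and 2 lower (background 17.7% and 18.3%), and 3 of 7 on HFHS, 2 higher and 1 lower (14.6% and 9.21%). Between hypothalamus and hippocampus, 4 of 7 changed on SC, 3 higher and 1 lower (5.86% and 4.13%), and 4 of 7 on HFHS, 3 higher and 1 lower (4.24% and 2.18%). Contrasts on 1 diet share libraries, so their counts are not independent of each other.

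**Figure D4:**
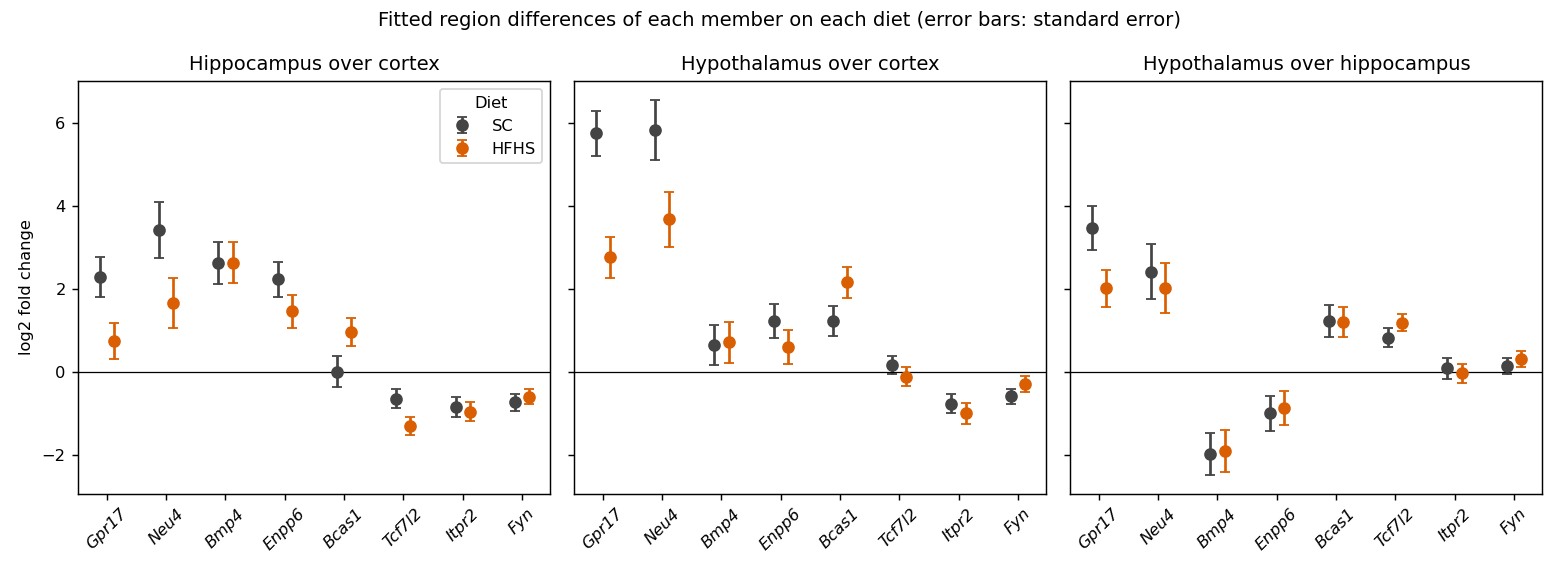
Fitted log2 fold change of each gene between regions, on SC and on HFHS; points are edgeR estimates from the model of all 6 groups and bars are standard errors. Neu4 is the highest of the tested genes in hypothalamus over cortex on SC (5.82), and Bmp4 is higher in hippocampus than in cortex on both diets (2.63).

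Neu4 showed the widest span of any tested gene of the set. It was higher in hypothalamus than in cortex by 5.82 ± 0.73 on SC (edgeR adjusted p = 1.56e-07) and by 3.67 ± 0.67 on HFHS (edgeR adjusted p = 9.46e-05), and higher in hippocampus than in cortex on SC by 3.41 ± 0.67 (edgeR adjusted p = 0.000313). No cortex library on SC reached the lowest hippocampus value of 3.97 TPM. Hypothalamus exceeded hippocampus by 2.41 ± 0.66 on SC (edgeR adjusted p = 0.0179), a call lost without hippocampus SC replicate 2 (2.25, adjusted p = 0.0542). On HFHS, the difference to hippocampus, 2.02 ± 0.60 (edgeR adjusted p = 0.0362), was lost in 7 of 12 fits that left out 1 library: hypothalamus replicates 4 and 5 and hippocampus replicates 1, 2, 3, 4 and 6 (1.57 to 2.02, adjusted p = 0.0519 to 0.16). Hippocampus over cortex on HFHS, 1.65 ± 0.60 (edgeR adjusted p = 0.0415), was lost in 7 of 13, without hippocampus replicates 5, 6 and 7 or cortex replicates 1, 2, 3 and 6 (1.21 to 1.74, adjusted p = 0.0543 to 0.137), and also without the short libraries (1.53, adjusted p = 0.0846), with no filter on low counts (1.66, adjusted p = 0.056) and with counts rebuilt from TPM (1.68, adjusted p = 0.0521). Gpr17 was higher in hippocampus than in cortex on SC by 2.28 ± 0.48 (edgeR adjusted p = 0.000652), and by 0.75 ± 0.44 on HFHS, short of the threshold (edgeR adjusted p = 0.227). Its hypothalamus level exceeded that of cortex by 5.74 ± 0.55 on SC and 2.75 ± 0.49 on HFHS, given as a description.

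The other sialidases give a frame for Neu4. On SC, Neu1, the lysosomal sialidase, and Neu2, the cytosolic one, were higher in hypothalamus than in cortex by 0.41 ± 0.14 (edgeR adjusted p = 0.0216) and 3.41 ± 0.38 (edgeR adjusted p = 2.23e-08). Of the 3 other sialidases, 2 were higher and 0 lower in that contrast, with a median of 0.45 against 0.06 over all genes tested. Over all genes, 17.7% were higher and 18.3% lower there. Precursor markers were higher in hypothalamus too: 9 of 10 passed against cortex on SC, with a median of 3.58, and 8 of 10 against hippocampus, with a median of 2.05. Over all genes, 5.86% were higher in hypothalamus than in hippocampus on SC. Pcdh15, a protocadherin, was higher than in cortex by 4.32 ± 0.43 (edgeR adjusted p = 1.97e-09), and Pdgfra by 5.59 ± 0.60 (edgeR adjusted p = 7.34e-09). Ependymal markers, which label the ciliated cells of the ventricles, were also higher (8 of 8 over cortex on SC, summed level 3978 to 7330 TPM against 93.2 to 411 TPM). What part such cells have in these differences was not tested.

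Bmp4, the ligand, had its highest median level in hippocampus on both diets, as did Enpp6. Hippocampus SC libraries held 4.47, 2.76, 4.67, 15.4 and 8.94 TPM, hypothalamus SC libraries 1.02 to 3.87 TPM (median 2.01) and cortex SC libraries 0.229 to 2.47 TPM (median 0.541). Hippocampus overlapped hypothalamus through replicate 2 and stood above every cortex library. Against cortex the difference was 2.63 ± 0.51 on SC (edgeR adjusted p = 0.000272) and 2.63 ± 0.49 on HFHS (edgeR adjusted p = 0.000172). Hypothalamus was lower than hippocampus by -1.99 ± 0.50 on SC (edgeR adjusted p = 0.00937) and by -1.92 ± 0.51 on HFHS (edgeR adjusted p = 0.0183), the latter lost without hypothalamus HFHS replicate 2 (-1.68, adjusted p = 0.0611). Hypothalamus and cortex were not told apart on either diet, at 0.64 ± 0.47 and 0.71 ± 0.49. The levels rest on few reads, from 25 in a cortex library to 906 in a hippocampus library.

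Other genes of the BMP pathway were more often lower than higher in hippocampus. Of 20 tested genes, 1 was higher and 9 were lower in hippocampus than in cortex on SC, beside 15.4% and 15.3% of all genes. Their median was -0.82 against 0.04 over all genes. The higher one was Bmp2, another ligand, at 1.95 ± 0.43 (edgeR adjusted p = 0.00108). Chrdl1, a secreted BMP antagonist, was lower by -3.97 ± 0.79 (edgeR adjusted p = 0.000366), and Id2, a target that blocks helix-loop-helix factors, by -2.83 ± 0.53 (edgeR adjusted p = 0.000177). Astrocyte markers were lower in the same contrast (11 of 12, median -2.15). Between diets, 0 of 19 tested pathway genes passed in any region, with medians of -0.03 in hypothalamus, -0.20 in hippocampus and -0.51 in cortex.

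Enpp6 was highest in hippocampus, with 99.5, 60.7, 96.8, 39.9 and 43.5 TPM on SC and 30.9 to 82.8 TPM on HFHS (median 55.4). Cortex held 5.48 to 21.1 TPM on SC and 3.74 to 54.5 TPM on HFHS. On SC no cortex library reached the hippocampus range, and on HFHS 1 did. The difference to cortex was 2.23 ± 0.43 on SC (edgeR adjusted p = 0.00025) and 1.46 ± 0.40 on HFHS (edgeR adjusted p = 0.00679). Hypothalamus was higher than cortex on SC by 1.22 ± 0.40 (edgeR adjusted p = 0.0177), lost without hypothalamus SC replicate 1 (1.05, adjusted p = 0.0507), and by 0.59 ± 0.42 on HFHS (edgeR adjusted p = 0.334), which passed without cortex HFHS replicate 3 (1.22, adjusted p = 0.0168). Hypothalamus and hippocampus differed by -1.01 ± 0.42 on SC, short of the threshold (edgeR adjusted p = 0.126). With the replicate number as a block, 3 Enpp6 differences passed that did not without it: hypothalamus against hippocampus on SC (-0.98, adjusted p = 0.0169) and on HFHS (-1.085, adjusted p = 0.00926), and hypothalamus against cortex on HFHS (0.78, adjusted p = 0.0323). Of the other ectoenzymes of the family, 4 of 5 tested were higher in hippocampus than in cortex on SC, beside 15.4% of all genes. Enpp2, which makes lysophosphatidic acid, was higher by 3.30 ± 0.59 (edgeR adjusted p = 0.00012). Mature oligodendrocyte markers were higher in that contrast as well (9 of 12, median 1.85). The SC median of Enpp2 was 7865 TPM in hippocampus and 802 TPM in hypothalamus, where the median sums of mature markers were 79130 and 81830 TPM. Which cells the Enpp2 RNA came from was not tested.

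Bcas1 was the most abundant of the 8 genes in every group by TPM. Hypothalamus held 906 to 1862 TPM on SC (median 1520), hippocampus 760, 491, 657, 371 and 640 TPM, and cortex 74.6 to 888 TPM (median 498). Every hypothalamus library on SC was above every cortex and hippocampus library on SC. Hypothalamus exceeded cortex by 1.22 ± 0.36 on SC (edgeR adjusted p = 0.00752) and by 2.15 ± 0.38 on HFHS (edgeR adjusted p = 4.78e-05), and both calls held as each library was left out. Hippocampus and cortex were not told apart on SC (0.00 ± 0.37). On HFHS they differed by 0.96 ± 0.34 (edgeR adjusted p = 0.0396), lost in 7 of 13 fits, without hippocampus replicates 1, 3 and 4 or cortex replicates 3, 4, 5 and 6 (0.67 to 0.97, adjusted p = 0.0575 to 0.147). That call was also lost with counts rebuilt from TPM (0.84, adjusted p = 0.0727) and without the short libraries (0.78, adjusted p = 0.0831). Hypothalamus over hippocampus was 1.22 ± 0.38 on SC (edgeR adjusted p = 0.035), lost in all but 3 of 11 fits (hypothalamus replicates 1 and 3, hippocampus replicate 1), and 1.20 ± 0.35 on HFHS (edgeR adjusted p = 0.0342), lost in 10 of 12, in all but those without hypothalamus replicate 2 or hippocampus replicate 1. Where lost, the SC value was 1.08 to 1.27 (adjusted p = 0.0535 to 0.0967) and the HFHS value 0.97 to 1.26 (adjusted p = 0.052 to 0.124). The HFHS call was also lost with the replicate number as a block (0.99, adjusted p = 0.0725).

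Tcf7l2 had its lowest median in hippocampus. On SC, hypothalamus held 26.1 to 40.7 TPM (median 30.4), hippocampus 16.4, 23.1, 13.6, 17.2 and 13.1 TPM, and cortex 10.1 to 25.3 TPM (median 19.9). All hypothalamus libraries were above all libraries of both other regions, and hippocampus lay within the cortex range. Hypothalamus exceeded hippocampus by 0.82 ± 0.23 on SC (edgeR adjusted p = 0.0193) and by 1.19 ± 0.22 on HFHS (edgeR adjusted p = 0.000761). The SC call was lost without hypothalamus replicate 4 or hippocampus replicates 3 or 5 (0.73 to 0.78, adjusted p = 0.0507 to 0.0521). Hippocampus was lower than cortex by -0.65 ± 0.23 on SC (edgeR adjusted p = 0.028) and by -1.31 ± 0.21 on HFHS (edgeR adjusted p = 2.2e-05). The first was lost without hippocampus replicates 3, 4 or 5 or cortex replicate 2 (-0.63 to -0.55, adjusted p = 0.0564 to 0.0752) and with no filter on low counts (-0.62, adjusted p = 0.0644). Hypothalamus and cortex differed by 0.17 ± 0.21 on SC in the count model.

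The other Wnt pathway genes went in both directions. Of 19 tested, 2 were higher and 5 lower in hippocampus than in cortex on SC, beside 15.4% and 15.3% of all genes. In hypothalamus against hippocampus on SC, 3 were higher and 1 lower, beside 5.86% and 4.13% of all genes. The medians were -0.51 and 0.03. Tcf7l1, a related factor that mainly represses, was lower in hippocampus than in cortex by -1.51 ± 0.28 (edgeR adjusted p = 0.000171), and Rnf43, a ligase that removes Wnt receptors, was higher by 2.75 ± 0.52 (edgeR adjusted p = 0.000194). Between diets, 0 of 19 passed in any region, with medians of -0.34, -0.24 and -0.25 in hypothalamus, hippocampus and cortex.

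Fyn, the kinase, was lower in both other regions than in cortex on SC. Cortex held 15.3 to 102 TPM (median 91.8), hypothalamus 55.6 to 79.1 TPM (median 67.8) and hippocampus 55.0, 82.6, 55.7, 60.2 and 47.0 TPM. The low cortex value belongs to replicate 6, the shortest library, and the next was 77.7 TPM. The difference was -0.74 ± 0.19 for hippocampus (edgeR adjusted p = 0.00428) and -0.60 ± 0.18 for hypothalamus (edgeR adjusted p = 0.011), and on HFHS -0.60 ± 0.18 (edgeR adjusted p = 0.0117) and -0.29 ± 0.19 (edgeR adjusted p = 0.294). Among 9 other Src family kinases and their regulators, 0 were higher and 1 lower in hippocampus than in cortex on SC (Src, -1.19 ± 0.45, edgeR adjusted p = 0.0436). Over all genes, 15.4% were higher and 15.3% lower in that contrast.

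Itpr2, the calcium channel, differed by region in read counts more than in TPM. In read counts it was lower than in cortex in hippocampus, by -0.85 ± 0.25 on SC (edgeR adjusted p = 0.00968) and -0.96 ± 0.23 on HFHS (edgeR adjusted p = 0.00187), and in hypothalamus, by -0.77 ± 0.23 on SC (edgeR adjusted p = 0.0103) and -1.005 ± 0.25 on HFHS (edgeR adjusted p = 0.003). With counts rebuilt from TPM, 3 of these 4 calls were lost: -0.60 in hippocampus on HFHS (adjusted p = 0.159), -0.47 in hypothalamus on SC (adjusted p = 0.27) and -0.14 in hypothalamus on HFHS (adjusted p = 0.824). The call in hypothalamus on SC was also lost without the 3 short libraries (-0.57, adjusted p = 0.0629). By TPM, hypothalamus held 3.79 to 18.3 on SC, hippocampus 3.07, 9.96, 5.76, 5.77 and 5.18, and cortex 6.17 to 14.7, with all 3 ranges overlapping. Its transcripts differ widely in length. Itpr2-203, a processed transcript of 582 bases, held 30.2 ± 16.4% of the gene's TPM (SD, n = 6) in hypothalamus on SC but 2.79 ± 1.84% of its estimated reads, and Itpr2-202, a coding transcript of 11679 bases, held 16.7 ± 8.78% of the TPM. Its sister channel Itpr1 was lower in hypothalamus than in cortex by -1.31 ± 0.33 on SC (edgeR adjusted p = 0.00189).

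Transcript use within each gene was not read by the choice of genes. The leading transcript held 70.3 ± 2.96% of the Fyn TPM in hypothalamus on SC (n = 6) and 60.3 ± 2.02% in cortex (n = 6), without overlap, 64.8 to 73.5% against 56.9 to 62.6% (Fyn-202; exact two-sided permutation p = 0.00216, adjusted p = 0.0455 over 21 tests). The shorter Fyn-205 held 8.13% and 25.5%. No other tested share passed the adjusted threshold by region, and 0 of 20 passed it by diet. The closest between diets was Bcas1-208 in hypothalamus, with 88.0 ± 0.359% on HFHS and 86.6 ± 1.05% on SC (exact two-sided permutation p = 0.00433, adjusted p = 0.0866). Its ranges did not overlap, at 87.4 to 88.3% against 84.5 to 87.2%. That p is the smallest that 5 against 6 libraries can give, so 1 share alone could not pass in a contrast of that size. The same holds for diet in hippocampus. Gpr17 has 1 annotated transcript and gave no share.

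Within groups, the genes differed in the cell type whose markers they followed. This relation was looked for after the values were seen: log2 CPM of each gene, less the mean of its group, was set against the mean of each marker list over all 35 libraries, in 24 relations. Enpp6 followed the 12 mature markers (Pearson r = 0.934, Spearman rho = 0.911, permutation adjusted p = 0.00012 and 0.00024), with r between 0.923 and 0.944 in each region and 0.906 without the 2 farthest libraries. An unadjusted permutation p of 1e-05, which it reached, is the smallest that these permutations can give. Neu4 followed the 10 precursor markers (r = 0.734, rho = 0.739, permutation adjusted p = 0.00012 and 0.00024), with 0.887 in hypothalamus, 0.834 in hippocampus and 0.661 in cortex, and 0.713 without the 2 farthest. Gpr17 had r = 0.551 and rho = 0.511 with them, given without a test because the hypothalamus libraries enter, with 0.772 in hypothalamus, 0.442 in hippocampus, 0.514 in cortex and 0.444 without the 2 farthest. Whether Neu4 and Gpr17 differ in this was not tested.

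Bmp4 also went with precursor markers (r = 0.477, rho = 0.455, permutation adjusted p = 0.0265 and 0.0364), with 0.525, 0.652 and 0.275 by region and 0.393 without the 2 farthest. Tcf7l2 (r = 0.581, rho = 0.466, permutation adjusted p = 0.00656 and 0.0298) and Fyn (r = 0.453, rho = 0.436, permutation adjusted p = 0.0265 and 0.0412) went with astrocyte markers, with 0.818 and 0.744 in hypothalamus, where HFHS replicate 2 lies, and 0.475 and 0.439 without the 2 farthest. Itpr2 did so with r = 0.474 (rho = 0.392, permutation adjusted p = 0.0108 and 0.0429), 0.146 in cortex and 0.318 without the 2 farthest. Bcas1 had r = 0.402 and rho = 0.433 with mature markers (permutation adjusted p = 0.0632 and 0.0429). Negative relations that passed in both measures were those of Neu4 with mature markers (r = -0.594, rho = -0.477, permutation adjusted p = 0.0108 and 0.0364; -0.17, -0.602 and -0.74 by region, -0.404 without the 2 farthest), and of Enpp6 with precursor and astrocyte markers. For Enpp6 and precursor markers r was -0.437 and rho -0.477 (permutation adjusted p = 0.0265 and 0.0317), with -0.043, -0.665 and -0.638 by region and -0.522 without the 2 farthest. For Enpp6 and astrocyte markers r was -0.402 and rho -0.511 (permutation adjusted p = 0.0188 and 0.0176), with -0.764, -0.471 and -0.399 by region and -0.539 without the 2 farthest. All these relations share the same libraries, their depth and their scaling.

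**Figure D5:**
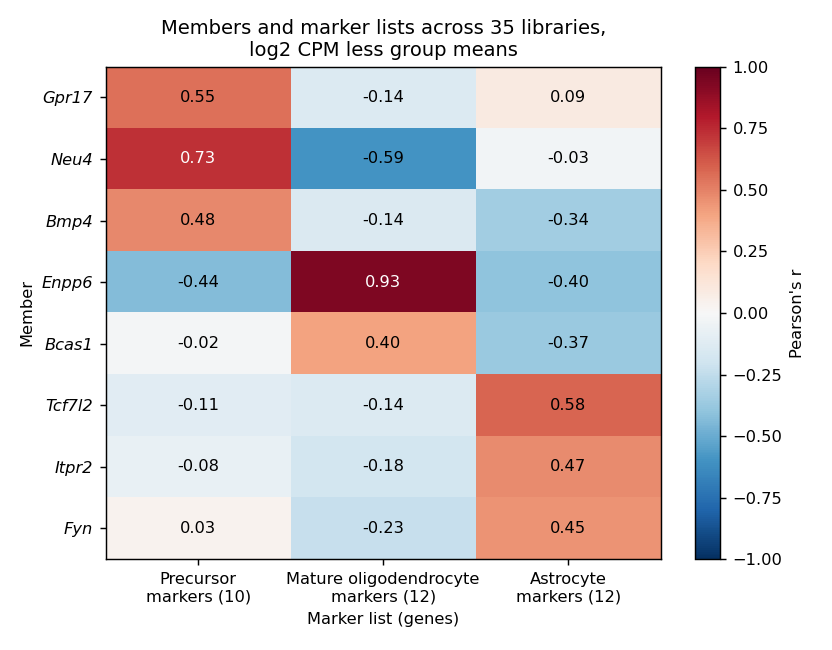
Pearson r between each gene and each of 3 marker lists across 35 libraries, in log2 CPM less group means; colours run from -1 (blue) to 1 (red). Neu4 (0.73), Gpr17 (0.55) and Bmp4 (0.48) are highest with precursor markers, Enpp6 (0.93) with mature markers, and Tcf7l2 (0.58), Itpr2 (0.47) and Fyn (0.45) with astrocyte markers.

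Among the genes themselves, with group means removed, the correlations were modest and are given as a description over 35 libraries. Gpr17 and Neu4 had r = 0.358, Enpp6 and Bcas1 0.471, Tcf7l2 and Fyn 0.432, and Enpp6 and Neu4 -0.582. The 8 genes therefore did not vary as 1 set in these libraries, whatever their common label. Among 13325 genes, those most like Gpr17 by this measure were Akap12 (r = 0.68), Plxna2 (0.67), Slc35f1 (0.645), Igf1r (0.64) and Dock6 (0.627). Those most like Enpp6 were Bin1 (0.95), Tmod1 (0.945), Pigz (0.942), Fam57a (0.942) and Sgk2 (0.938).

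The P2Y and cysteinyl leukotriene receptors, the family to which GPR17 is closest, gave no common direction. Of 8 tested, 0 passed between diets in any region, with medians of 0.25, 0.40 and 0.15 in hypothalamus, hippocampus and cortex. Between hippocampus and cortex on SC, P2ry14 was higher by 1.31 ± 0.34 (edgeR adjusted p = 0.00356) and P2ry2 lower by -1.89 ± 0.52 (edgeR adjusted p = 0.00663).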

How the data were processed

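RNA of ACSA2-sorted cells was amplified with SMART-Seq v4 before sequencing, per the labels' protocols. Per the submitters' processing notes, the authors used FastQC, Salmon and GRCm38; the tool versions were not found in those notes. The deposited files hold, per the file headers, an estimated count of reads, a TPM value and an effective length for each of 140948 transcripts in each library. Of these, 139852 matched GENCODE M21 and were summed into 54119 genes; the 1096 others held 0.214 to 0.535% of reads and were left out. Summed estimated counts were rounded to whole numbers.

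Differences were fitted in edgeR 4.0.16 (R 4.3.3) with robust quasi-likelihood tests, the filterByExpr filter, TMM scaling and Benjamini-Hochberg adjustment over all genes tested, at 0.05. Diet was fitted within each region, and regions and differences of diet effect in 1 fit of all 6 groups. Of each list, up to 3 genes with the smallest p among those past the threshold could be named, and otherwise up to 2 with the highest mean TPM, beside reference markers such as Pdgfra, Mbp, Aqp4 and Atp1b2. DESeq2 1.42.0, upper quartile scaling, no filter, counts rebuilt from TPM and length, a replicate block, leaving out the short libraries and leaving out each library were tried. Shares of the leading transcript, where each library compared had at least 20 estimated counts of the gene, were compared by exact two-sided permutation tests (Python 3.11.15, SciPy 1.17.1). Relations with markers used log2 CPM (prior count 2) and 100000 permutations within groups. Likeness to Gpr17 and Enpp6 was Pearson's r of the same values over genes whose mean log2 CPM was 1 or more, for the 5 genes nearest to each. The edgeR fit was also run on simulated data of 2 groups at a time, which did not cover the fit of all 6 groups. Its recovery of changed genes is not given here. The members and lists were chosen with earlier results of these data known. The labels name no batch and do not say whether a replicate number marks anything that pools of different groups share.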

Additional observations from a re-analysis of the deposited data

Results flagged for a closer look

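Of 48 sets formed by 1 gene in 1 group, 5 held a library far from the others by Dixon's criterion at 95%. Chance marks about 1 in 20 sets where values follow a normal distribution. Whether these TPM values do was not tested. Bcas1 was 1351 TPM in hippocampus HFHS replicate 1, with the next at 757 TPM. Bmp4 was 2.47 TPM in cortex SC replicate 4, with the next at 0.916 TPM. Enpp6 was 54.5 TPM in cortex HFHS replicate 3, with the next at 21.6 TPM. Neu4 was 1.41 TPM in cortex SC replicate 5, with the next at 0.492 TPM. Fyn was lowest, at 15.3 TPM, in cortex SC replicate 6, which also had the shortest transcripts, with the next at 77.7 TPM.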

How the results depend on the processing

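Of 1504 values of single genes under alternatives, 1377 kept their direction and their side of the threshold, 60 lost a call and 4 gained one, and 163 of 175 counts stayed within 1.5 times. DESeq2 and upper quartile scaling gave the same member counts in every contrast. With counts rebuilt from TPM, 4 genes passed between hippocampus and cortex on HFHS. Leaving out 1 library gave 2 to 4 genes between hypothalamus and hippocampus on SC and 2 to 3 on HFHS. By estimated counts in place of TPM, 2 leading shares differed by region, Bcas1-208 and Fyn-202. The replicate block gained 3 calls of Enpp6 (hypothalamus against hippocampus, -0.98 on SC and -1.085 on HFHS, and against cortex on HFHS, 0.78) and lost 1 of Bcas1 (hypothalamus against hippocampus on HFHS, 0.99), and changed no other call of the set. Of 48 same-numbered pairs, 21 had r over 0.1 (range -0.0642 to 0.545), and 41 of 96 libraries correlated best with their own number, a hint from the data and not the design. The hypothalamus diet values under DESeq2 (Gpr17 -2.52), no filter and without the short library (-2.71) were added after seeing the data.

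Signs turned for 62 values, only for differences of at most 0.53 in size. The cause was not tested. By diet in hypothalamus, Bmp4 was -0.11 with counts rebuilt from TPM and -0.072 with the replicate block, and Itpr2 -0.0026 with the block. Tcf7l2 there was 0.013 with DESeq2 and 0.015 with no filter. As each library was left out, Enpp6 there ran from -0.32 to 0.031 and Tcf7l2 from -0.28 to 0.13. Bmp4 there ran from -0.029 to 0.39 and Itpr2 from -0.0066 to 0.23. With upper quartile scaling Fyn by diet in hippocampus was 0.0555, Bcas1 between hippocampus and cortex on SC 0.0359 (0.0247 with no filter), and the difference of diet effects for Bmp4 -0.000186 (-0.0298 with no filter, -0.109 without the short libraries). Itpr2 between hypothalamus and hippocampus on HFHS was 0.47 with counts rebuilt from TPM and 0.0058 with the block, and its difference of diet effects 0.70. With the block, Bmp4 by diet was -0.113 in hippocampus and -0.0167 in cortex. As each library was left out, Bcas1 between hippocampus and cortex on SC ran from -0.16 to 0.30, Bmp4 by diet from -0.44 to 0.53 in cortex and -0.22 to 0.46 in hippocampus, its difference of diet effects from -0.41 to 0.54, Enpp6 by diet in cortex from -0.10 to 0.77, and Fyn by diet in hippocampus from -0.11 to 0.13. Itpr2 ran from -0.24 to 0.20 in the difference of diet effects, and between hypothalamus and hippocampus from -0.186 to 0.0499 on HFHS and -0.0243 to 0.388 on SC. Tcf7l2 between hypothalamus and cortex on HFHS ran from -0.401 to 0.0109. Neu4 in cortex rests on 6 to 265 estimated reads per library, which limits its precision there.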
